A study of Rattus norvegicus with 4 samples.

Results

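The interferon response and class I antigen presentation genes were examined in rat pancreatic islets after intrauterine growth restriction (IUGR). The set held 38 listed genes: interferon-induced genes, the inducible proteasome subunits and the genes that load peptide onto class I molecules. They were chosen by name, as all gene probes on the arrays that carry one of these symbols, and the rule uses no measured value. They were measured by 41 of 30367 probes, which covered 37 of the 38 genes, and no probe carried the symbol Xaf1. Of the 37, 35 entered the test among 20012 genes or unnamed probes, and 2 were not bright enough (Ifit1 and Oasl). Of the 35, 31 were well above background in all 8 channels, and 2 (Irf8 and Ifit3) passed the brightness filter through the control channels only.

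The 4 IUGR samples were islets of Sprague Dawley rat pups whose dams had both uterine arteries tied off on embryonic day 18. The 4 control samples were islets of pups of sham-operated dams. All 8 samples were taken on postnatal day 14 after spontaneous delivery, and dams of both groups had an operation. The model restricts the blood supply to all pups of a litter, and the labels do not give the sex, the litters or the number of animals behind a sample, so that p-values measure only the spread between these samples. Each of 4 two-colour arrays, all on 1 slide, held 1 IUGR and 1 control sample, with IUGR in the red dye Cy5 on arrays 1 and 2 and in the green dye Cy3 on arrays 3 and 4. Arrays 1 to 4 held IUGR replicates 2, 1, 4 and 3 and control replicates 1, 2, 3 and 4.

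Type I interferons bind the receptor made of Ifnar1 and Ifnar2, and the kinases on its inner side activate Stat2, which enters the nucleus with Irf9 and switches on genes that carry an interferon-stimulated response element. The products of these genes detect viral RNA, block steps of virus replication and damp the signal again. Interferon also raises the supply of peptides for class I molecules, through exchanged proteasome subunits and the peptide transporter of the endoplasmic reticulum. In islets, strong class I and interferon signatures are known from type 1 diabetes.

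Of the promoters of the 38 genes, 30 were found in a RefSeq table of the GRCr8 assembly, each as a window from 250 bases before to 50 bases after the gene's start. The core of the interferon-stimulated response element was searched on both strands as the letters GAAA, any 2 bases, and GAAA again. The core of the gamma-activated sequence, a site of the interferon gamma response, was searched as TTCNNNGAA, which reads the same on both strands. The response element core was present in 19 of the 30 windows (63.3%), against 3.92% of all 33469 windows in the table. TTCNNNGAA was present in 8 of the 30 (26.7%), against 8.87% of all windows. The 4 windows below belong to the tested genes with the smallest p-values among those that hold a match. They are shown with matches in capitals, 5′ to 3′ on the strand of the gene. They carry the response element core, which most of the 30 genes with a window share.
Rsad2: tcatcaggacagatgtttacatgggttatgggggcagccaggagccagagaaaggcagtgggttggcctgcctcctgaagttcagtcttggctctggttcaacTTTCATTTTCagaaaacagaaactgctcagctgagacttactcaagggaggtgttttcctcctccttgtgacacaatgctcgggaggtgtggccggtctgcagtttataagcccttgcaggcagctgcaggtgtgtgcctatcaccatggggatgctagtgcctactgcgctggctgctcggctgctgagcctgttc
Tap2: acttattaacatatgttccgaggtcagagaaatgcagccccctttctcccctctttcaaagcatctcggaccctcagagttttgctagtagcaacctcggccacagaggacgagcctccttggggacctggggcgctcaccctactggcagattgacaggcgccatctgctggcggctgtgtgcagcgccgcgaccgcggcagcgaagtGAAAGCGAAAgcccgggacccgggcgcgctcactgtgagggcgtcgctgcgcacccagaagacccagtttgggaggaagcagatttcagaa
Bst2: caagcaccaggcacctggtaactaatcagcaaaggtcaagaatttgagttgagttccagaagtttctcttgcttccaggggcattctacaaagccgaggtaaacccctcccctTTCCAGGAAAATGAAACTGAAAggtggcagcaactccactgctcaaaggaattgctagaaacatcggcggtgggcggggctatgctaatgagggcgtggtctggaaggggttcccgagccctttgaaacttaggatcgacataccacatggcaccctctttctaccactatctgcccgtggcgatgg
Eif2ak2: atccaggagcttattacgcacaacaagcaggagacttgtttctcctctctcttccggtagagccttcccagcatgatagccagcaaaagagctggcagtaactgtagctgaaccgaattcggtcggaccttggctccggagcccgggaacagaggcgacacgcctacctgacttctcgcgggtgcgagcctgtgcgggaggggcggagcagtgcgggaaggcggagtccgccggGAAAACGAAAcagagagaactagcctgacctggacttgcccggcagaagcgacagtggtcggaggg

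On GRCr8 these windows lie at chr6:48788071-48788370 (minus strand, Rsad2), chr20:4652247-4652546 (minus strand, Tap2), chr16:18254918-18255217 (minus strand, Bst2) and chr6:21940904-21941203 (plus strand, Eif2ak2). The Rsad2 match reads TTTCATTTTC on the strand of the gene, which is the motif on the opposite strand. The Bst2 capitals hold 2 overlapping copies of the response element core and, overlapping the first of them, 1 TTCNNNGAA. The Tap2 match starts 41 bases before the gene's start, and that of Eif2ak2 starts 16 bases before it. Tap1 and Psmb9 face away from each other, with starts 457 bases apart on GRCr8 and windows that overlap by 44 bases. A match describes the letters of a window and does not say whether a factor binds there.

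Among the tested genes, 18 had a match to the response element core, and their mean ratios ran from -0.51 (Eif2ak2) to 0.95 (Bst2), with 7 above 0 and 11 below. The median of these 18 was -0.11. Of 10 tested genes whose window had no match, 5 were above 0 and 5 below, with a median of 0.0072. Rsad2, Tap2 and Bst2 had mean ratios above 0 and Eif2ak2 had one below 0, although all of these windows hold the motif.

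No gene on the arrays passed the test at a Benjamini-Hochberg adjusted p of 0.05 (limma, 0 of 20012, 0%), and so none of the 35 did. The values that follow are given as measured, and no direction among them passed the adjusted test. The adjusted p of the 35 genes ran from 0.339 to 0.939. At an unadjusted p under 0.05, 9 of the 35 were counted (25.7%), against 13.7% of all genes tested. Of the 9, 3 had higher ratios in IUGR (Rsad2, Tap2 and Bst2, 8.57% of the 35, against 7.13% of all genes). The other 6 had lower ratios (Ddx58, Usp18, Ifit2, Eif2ak2, Ifi44 and B2m, 17.1% of the 35, against 6.54% of all genes). The count of 9 depended on single arrays: it was 18 without array 1, 5 without array 2, 1 without array 3 and 4 without array 4. Each of these fits had 1 residual degree of freedom, and their counts over all genes are not given. These counts of the 35 therefore cannot be set beside a share of all genes. The count also depended on the local background: it was 2 when spots with an outlying background kept their measured one. In that setting 1482 of 20012 genes had an unadjusted p under 0.05 (limma), against 2735 in the reported fit. The share of the 35 then no longer lay above that of all genes.

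Of the 35 mean log2 ratios of IUGR over control, 14 lay above 0 (40%, against 53.0% of all genes) and 21 below 0 (60%, against 47.0% of all genes). The median of the 35 was -0.11 and that of all genes 0.01. The interquartile range of the 35 ran from -0.18 to 0.11, and that of all genes from -0.11 to 0.16. The size of the ratio, without its sign, had a median of 0.17 in the 35 genes and 0.14 in all genes. The SD over the 4 arrays had a median of 0.28 in the 35 genes and 0.22 in all genes.

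**Figure D1:**
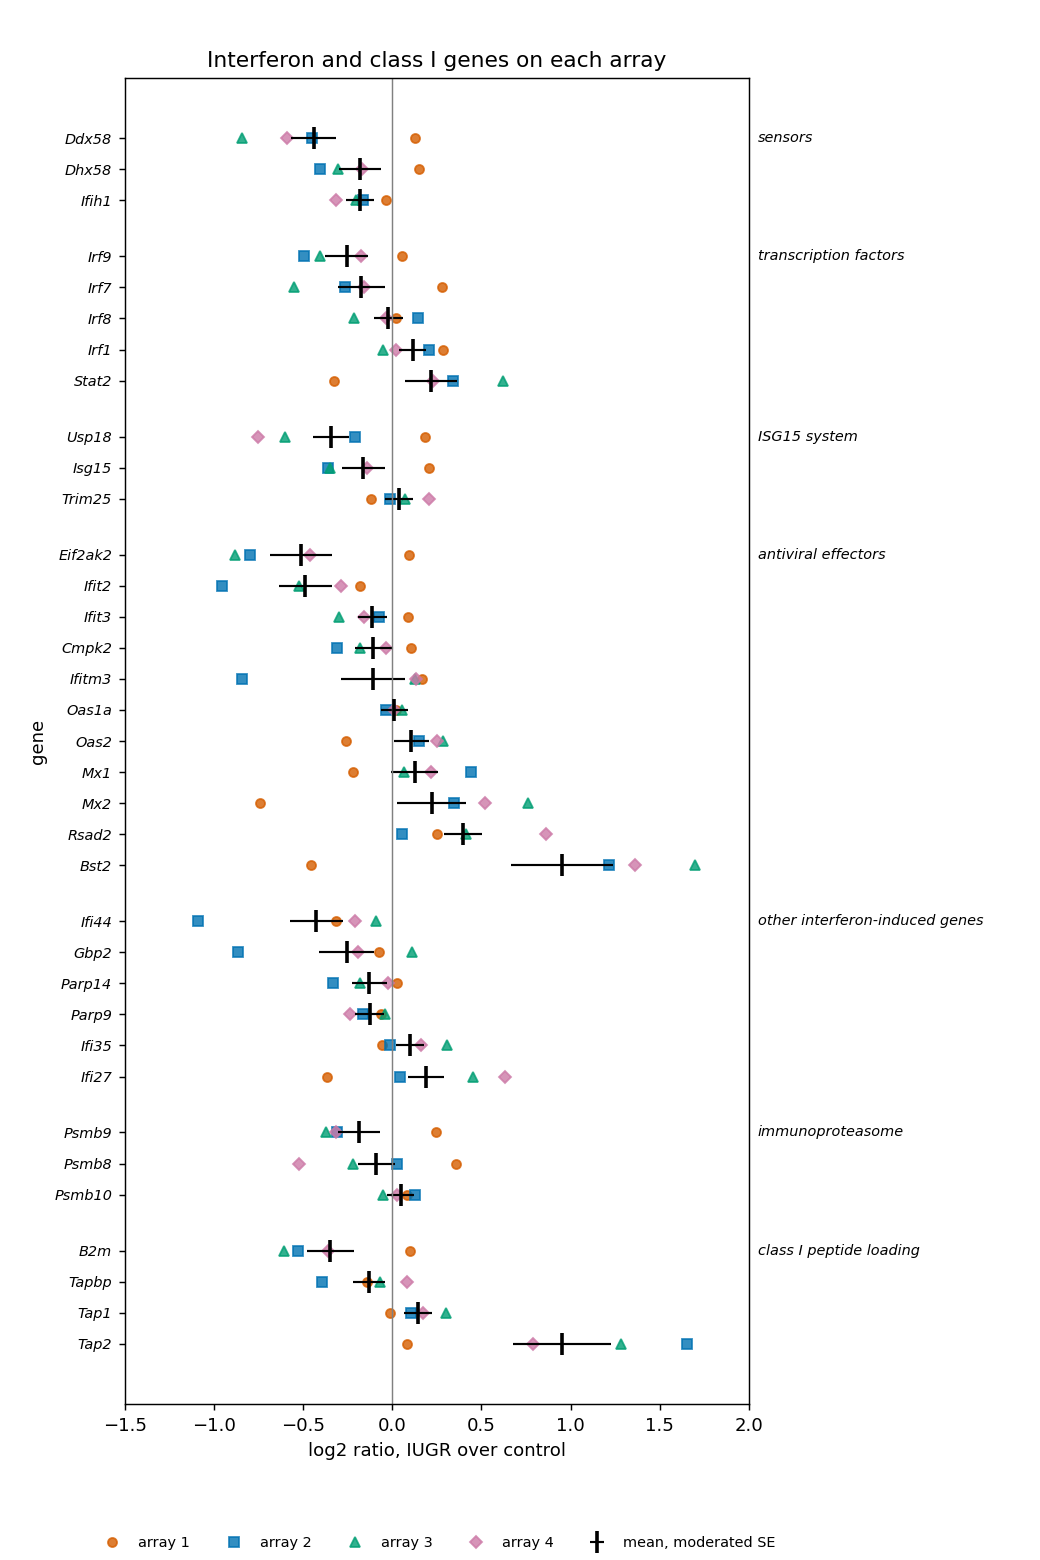
Log2 ratio of IUGR over control (horizontal axis) of the 35 tested interferon and class I genes (vertical axis, grouped by role), with 1 symbol per array and a black bar for the mean with its moderated SE. Bst2 and Tap2 reach means of 0.95 on the right, Eif2ak2 and Ifit2 reach -0.51 and -0.49 on the left, and array 1 often lies on the other side of 0 from arrays 2 to 4.

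Array 1 often went the other way from the rest. Arrays 2, 3 and 4 shared a sign for 25 of the 35 genes (71.4%, against 52.4% of all genes), and for 19 of those 25 array 1 had the opposite sign (54.3% of the 35, against 31.7% of all genes). Among them were Ddx58, Usp18, Eif2ak2, B2m, Isg15, Irf7 and Irf9, which were above 0 on array 1 and below 0 on arrays 2 to 4. Bst2, Stat2, Mx1, Mx2, Oas2 and Ifi27 were below 0 on array 1 and above 0 on arrays 2 to 4. The same sign on all 4 arrays was seen for 6 of the 35 (17.1%, against 20.7% of all genes): Rsad2 and Tap2 above 0 (against 11.0% of all genes), and Ifih1, Ifit2, Parp9 and Ifi44 below 0 (against 9.69% of all genes). The mean of arrays 1 and 2 and that of arrays 3 and 4, which had the dyes exchanged, had opposite signs for 14 of the 35 (40%, against 39.4% of all genes). The median of the 35 genes was 0.02 on array 1, -0.16 on array 2, -0.07 on array 3 and -0.04 on array 4. Here and below, means without 1 array give the 2 dye orientations equal weight, so they are not plain means of the remaining ratios. Without array 1, the medians of the groups by role were -0.32 (sensors), -0.30 (ISG15 system), -0.18 (other interferon-induced genes) and -0.17 (inducible proteasome). For the transcription factors it was then 0.0088, for the antiviral effectors -0.0023 and for peptide loading -0.01, each on the other side of 0 from the median over 4 arrays.

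Array 1 also differed in brightness, as the only one whose IUGR channel was the brighter. The median signal over all probes was 344, 105, 154 and 199.8 intensity units in the IUGR channels of arrays 1 to 4, against 107, 314, 823 and 586 in the control channels. With the brightness difference of the channels as a covariate, the median of the 35 genes was -0.02 and 5 of them had an unadjusted p under 0.05 (Rsad2, Tap2, Bst2, Ddx58 and Ifit2). That fit had 1 residual degree of freedom. Its count over all genes is not given, so the count of 5 cannot be set beside a share of all genes. Beta cell markers were present, as the labelled tissue calls for: all 11 genes of a list of 12 that had a probe were bright enough to be tested, with summed signals of 333600 to 1043000 in IUGR and 387100 to 705900 in control samples. Markers of T and NK cells had mean ratios of 0.02, -0.28, -1.36 and -0.61 on arrays 1 to 4, with 13 of 14 tested markers below 0 and only Cd28 below background in every channel. Their summed signal was 1814 to 2205 in the IUGR samples, against 2197 to 8147 in the control samples. Markers of B cells had mean ratios of 0.15, -0.17, -1.04 and -0.61, with 6 of 7 below 0 and summed signals of 3805 to 5219 in IUGR, against 3697 to 13080 in control samples. Markers of dendritic cells had mean ratios of 0.03, -0.23, -0.40 and -0.23, with 7 of 7 below 0, Xcr1 below background in every channel, and summed signals of 5105 to 7473 in IUGR, against 6262 to 7530 in control samples. These 3 lists had the signs seen in Ddx58 and Usp18, above 0 on array 1 and below 0 on arrays 2 to 4. An endocrine list, that of alpha, delta and PP cells, had the same signs. Its mean ratios were 0.26, -0.15, -0.62 and -0.62, with 7 of 8 markers below 0. Its summed signals were 211300 to 388100 in IUGR, against 230600 to 396500 in control samples. Macrophage markers had mean ratios of 0.36, 0.39, 0.07 and 0.02, with 9 of 13 above 0 and summed signals of 27210 to 52090 in IUGR, against 26790 to 46070 in control samples.

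Other marker lists had the signs seen in Bst2, Stat2 and Mx2, below 0 on array 1 and above 0 on arrays 2 to 4. Granulocyte and mast cell markers had mean ratios of -0.37, 0.60, 0.99 and 0.62, with 9 of 10 above 0, Ltf below background in every channel, and summed signals of 5525 to 9231 in IUGR, against 3053 to 14110 in control samples. Red cell markers had -0.44, 0.26, 1.34 and 1.02, with 4 of 4 above 0, Epb42 below background in every channel, and summed signals of 149700 to 358300 in IUGR, against 140100 to 189400 in control samples. Endothelial markers had -0.40, 0.18, 0.71 and 0.53, with 9 of 10 above 0 and summed signals of 78950 to 104400 in IUGR, against 58920 to 110600 in control samples. In the other lists, 5 of 9 fibroblast and stellate cell markers and 13 of 13 acinar markers were above 0, as were 3 of 9 duct markers and 9 of 11 beta cell markers. The part of any of these cells in the ratios was not tested, and in whole islets fewer cells of a type and less RNA per cell cannot be told apart.

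**Figure D2:**
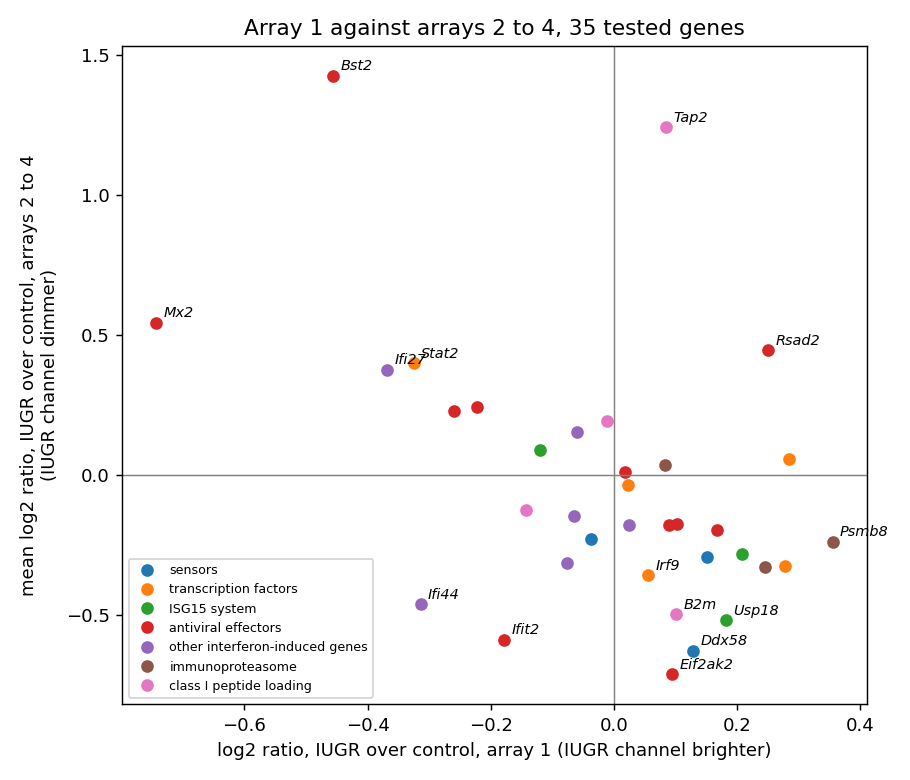
Log2 ratio of IUGR over control on array 1 (horizontal axis) against the mean log2 ratio of arrays 2 to 4 (vertical axis), with 1 point per tested gene, coloured by role. Most points lie at the upper left or lower right, as 19 of the 35 genes had opposite signs on array 1 and on each of arrays 2 to 4, and Tap2 and Rsad2 stand at the upper right.

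The RNA sensors of the cytosol all had mean ratios below 0, though Ifih1 turned to 0.19 when arrays were centred on the median in place of loess. Ddx58 (RIG-I), which recognises short viral RNA with a triphosphate end, had log2 signals of 7.56, 7.52, 7.36 and 7.65 in the IUGR samples of arrays 1 to 4, against 7.43, 7.97, 8.20 and 8.24 in the control samples. No IUGR sample reached the control samples of arrays 2 to 4, whereas the control sample of array 1 was lower than 3 of the 4 IUGR samples. Its ratios were 0.13, -0.45, -0.84 and -0.59, with a mean of -0.44 ± 0.13 (moderated SE, n = 4 arrays, limma, adjusted p = 0.339). The moderated SE has the difference between the dye orientations taken out, so that it is not the SD of the 4 ratios divided by the root of their number. The Ddx58 probe lies at chr5:57598203-57598262 on the rat assembly rn4, which the array files use. Which exon or untranslated region the probes lie in was not looked up.

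Ifih1 (MDA5), the sensor of long double-stranded RNA, had ratios of -0.04, -0.16, -0.21 and -0.32 on arrays 1 to 4, with a mean of -0.18 ± 0.08 (moderated SE, n = 4 arrays, limma, adjusted p = 0.339). It was below 0 on every array, but by little on array 1. Dhx58 (LGP2), which lacks the signalling domain of the others and regulates them, had ratios of 0.15, -0.40, -0.31 and -0.17 and a mean of -0.18 ± 0.12 (moderated SE, n = 4 arrays, limma, adjusted p = 0.416). The median of the sensors was -0.18, and -0.32 without array 1.

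The transcription factors of the pathway had a median of -0.02, with 2 of 5 above 0. Irf9, the DNA-binding part of the complex with Stat2, had ratios of 0.06, -0.50, -0.41 and -0.18 and a mean of -0.26 ± 0.12 (moderated SE, n = 4 arrays, limma, adjusted p = 0.341). Its partner Stat2 went the other way on every array, with -0.32, 0.34, 0.62 and 0.23 and a mean of 0.22 ± 0.15 (moderated SE, n = 4 arrays, limma, adjusted p = 0.428), which turned to -0.11 under median centring. Thus these partners had opposite signs on each array, and neither passed the test.

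Irf1, which interferon gamma induces and which drives class I genes, had ratios of 0.28, 0.20, -0.05 and 0.02 and a mean of 0.11 ± 0.08 (moderated SE, n = 4 arrays, limma, adjusted p = 0.422), which turned to -0.23 under median centring. A dimmer Irf1 probe had 0.23, 0.53, 0.69 and -0.07, with a mean of 0.34. Irf7, the factor that amplifies production of type I interferon, had 0.28, -0.27, -0.55 and -0.16, with a mean of -0.17. In its control samples, array 3 stood out with a log2 signal of 9.36, against 8.73 to 8.83 on the other arrays. Irf8, a factor of myeloid and B cells, was above background in 1 of 4 IUGR and 2 of 4 control channels and had a mean of -0.02, with a sign that turned under 3 of the other settings and without array 1 or array 3.

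In the ISG15 system, a ubiquitin-like tag with its own enzymes, Usp18 and Isg15 were both above 0 on array 1 and below 0 on arrays 2 to 4. Usp18, the protease that removes the tag and blocks the type I receptor, had log2 signals of 7.23, 7.10, 7.29 and 7.20 in the IUGR samples, against 7.05, 7.31, 7.89 and 7.95 in the control samples. The IUGR samples lay within a narrow band, and the control samples of arrays 3 and 4 were far above it. The ratios were 0.18, -0.21, -0.60 and -0.75, with a mean of -0.34 ± 0.10 (moderated SE, n = 4 arrays, limma, adjusted p = 0.339). Usp18 had a dimmer probe as well, which spans 552 bases of rn4 and so lies across an exon junction. That probe gave 0.15, -0.17, -0.48 and -0.60, with a mean of -0.28, so both Usp18 probes followed the same course over the arrays.

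Isg15 itself had ratios of 0.21, -0.36, -0.35 and -0.14 and a mean of -0.16 ± 0.12 (moderated SE, n = 4 arrays, limma, adjusted p = 0.474), which was 0.01 with the channel brightness as a covariate. Trim25, a ubiquitin ligase that activates the sensor Ddx58, had ratios of -0.12, -0.01, 0.07 and 0.20 and a mean of 0.04 ± 0.08 (moderated SE, n = 4 arrays, limma, adjusted p = 0.810). It was dimmer in Cy5 on all 4 arrays, as was Ifi35 (2 of the 35, against 7.25% of all genes). Its mean was -0.32 under median centring, and -0.0082 when outlying backgrounds were kept as measured or left out.

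The antiviral effectors did not share a direction: of 11 tested, 6 had mean ratios above 0 and 5 below, with a median of 0.01. They also held the genes with the most extreme means, Bst2 at 0.95 and Eif2ak2 at -0.51. Rsad2 (viperin), which makes a chain-terminating nucleotide from CTP, had log2 signals of 8.36, 8.34, 8.97 and 8.67 in the IUGR samples, against 8.11, 8.28, 8.55 and 7.80 in the control samples. The IUGR sample was the higher one on each array, while the groups overlapped because the control sample of array 3 was above the IUGR samples of arrays 1 and 2. The ratios were 0.25, 0.06, 0.42 and 0.86, with a mean of 0.40 ± 0.11 (moderated SE, n = 4 arrays, limma, adjusted p = 0.339), and the fold was 1.32. Without array 1, 2, 3 or 4 the mean was between 0.28 and 0.51.

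Bst2 (tetherin), which holds budding virus at the cell surface, had log2 signals of 9.93, 9.998, 10.60 and 10.51 in the IUGR samples, against 10.38, 8.78, 8.90 and 9.15 in the control samples. On arrays 2 to 4 each IUGR sample was higher than each control sample, and on array 1 the control sample was higher. The ratios were -0.46, 1.21, 1.70 and 1.36, with a mean of 0.95 ± 0.29 (moderated SE, n = 4 arrays, limma, adjusted p = 0.339), and an SD over the arrays of 0.96. The mean was 1.37 without array 1, 0.54 without array 2 and 0.47 with the channel brightness as a covariate. The Bst2 probe lies at chr16:18698676-18698735 on rn4.

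Ifit2, which binds viral RNA, had log2 signals of 7.75, 7.73, 8.27 and 7.97 in the IUGR samples, against 7.93, 8.68, 8.80 and 8.26 in the control samples. The IUGR sample was the lower one on each array, by least on array 1, and the groups overlapped. Its ratios were -0.18, -0.96, -0.52 and -0.29, with a mean of -0.49 ± 0.15 (moderated SE, n = 4 arrays, limma, adjusted p = 0.339), which was -0.29 without array 2. Of its relatives on the same stretch of chromosome 1, Ifit3 was above background in 1 of 4 IUGR and 3 of 4 control channels, with ratios of 0.09, -0.07, -0.30 and -0.16 and a mean of -0.11 that turned to 0.48 under median centring. Ifit1 was above background in 0 of 4 IUGR and 0 of 4 control channels, and no level is given for it.

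Eif2ak2 (PKR), the kinase that stops translation on contact with double-stranded RNA, had log2 signals of 8.10, 8.04, 8.12 and 8.17 in the IUGR samples, against 8.01, 8.84, 8.998 and 8.63 in the control samples. The IUGR samples differed little from one another, and the control sample of array 1 was below all of them. The ratios were 0.09, -0.80, -0.88 and -0.46, with a mean of -0.51, which was -0.29 without array 2. A dimmer Eif2ak2 probe gave -0.06, 0.13, 0.54 and -0.02, with a mean of 0.15, so the 2 probes had opposite signs on arrays 1, 2 and 3. The brighter probe stood on the array in 10 spots at chr6_random:125175-125234, and the dimmer probe in 1 spot spans chr6_random:121026-123381 on rn4, across an exon junction.

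The genes with 2 probes are where the reading of a gene depends on the sequence measured. The dimmer Irf1 probe, which spans 235 bases of rn4 and so lies across an exon junction, is not shown. The probes of Usp18, Eif2ak2 and Parp14 that span an exon junction are shown in full as the array carries them, with no base in capitals.
Usp18: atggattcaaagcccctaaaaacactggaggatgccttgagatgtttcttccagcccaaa
Eif2ak2: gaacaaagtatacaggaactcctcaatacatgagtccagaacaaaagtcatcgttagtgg
Parp14: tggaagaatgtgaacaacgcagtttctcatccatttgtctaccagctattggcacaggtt

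Among the other effectors, the dynamin-like GTPases Mx1 and Mx2 were below 0 on array 1 and above 0 on arrays 2 to 4. Mx2 had ratios of -0.74, 0.34, 0.76 and 0.52, with a mean of 0.22, and Mx1 had -0.22, 0.44, 0.07 and 0.22, with a mean of 0.13. The Mx2 mean turned to -0.14 under median centring, -0.10 with the channel brightness as a covariate and -0.05 without array 2. The Mx1 mean turned to -0.16, -0.05 and -0.04 in the same settings. Oas2, which makes the short oligoadenylate that activates RNase L, had -0.26, 0.15, 0.28 and 0.25, with a mean of 0.11. Its relative Oas1a had ratios between -0.04 and 0.06 and a mean of 0.01, the smallest in size of the 35. Oasl was above background in 1 of 4 IUGR and 0 of 4 control channels, and was not tested.

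Cmpk2, a mitochondrial nucleotide kinase, had ratios of 0.10, -0.31, -0.18 and -0.04 and a mean of -0.11. Its probe lies 38.4 kb from that of Rsad2 on chromosome 6 of rn4, and the neighbours had means of opposite sign. Ifitm3, which blocks fusion of virus with the endosome, had ratios of 0.17, -0.85, 0.12 and 0.13 and a mean of -0.11. That mean came from array 2: without it the mean was 0.15.

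**Figure D3:**
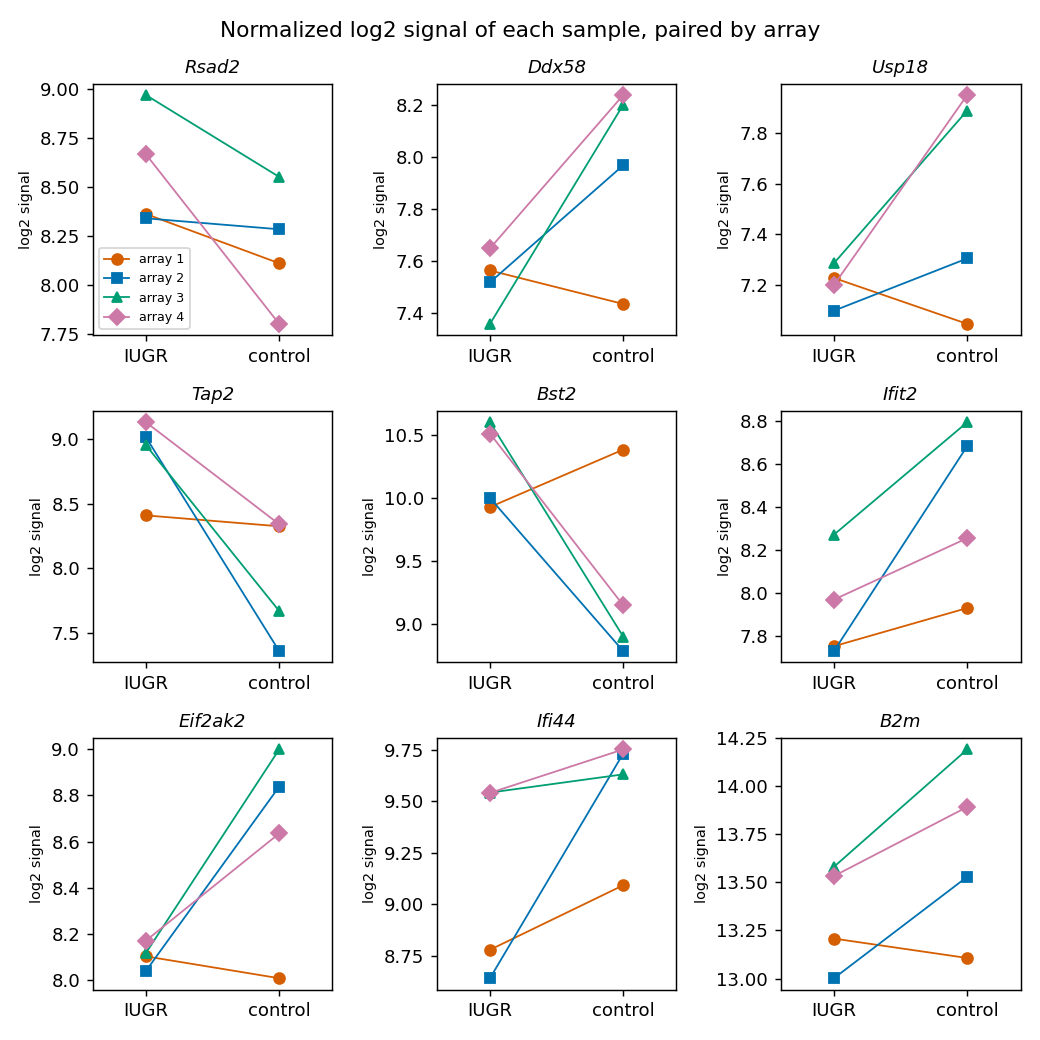
Normalized log2 signal (vertical axis, with its own scale in each panel) of the 9 genes with an unadjusted p under 0.05 in the IUGR sample (left) and the control sample (right) of each array, joined by a line. Lines of arrays 2 to 4 fall to the right for Tap2 and Bst2 and climb to the right for Ddx58, Usp18, Ifit2, Eif2ak2 and B2m, while the line of array 1 is flatter or runs the other way, and Tap2 is the panel in which the groups do not overlap.

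Of the other interferon-induced genes, 4 of 6 tested had mean ratios below 0, with a median of -0.13. Ifi44, a cytosolic protein with a GTP-binding motif, had log2 signals of 8.78, 8.64, 9.54 and 9.54 in the IUGR samples, against 9.09, 9.73, 9.63 and 9.75 in the control samples. The IUGR sample was the lower one on each array, and array 2 had by far the widest gap. Its ratios were -0.31, -1.09, -0.09 and -0.21, with a mean of -0.43 ± 0.15 (moderated SE, n = 4 arrays, limma, adjusted p = 0.339), which was -0.23 without array 2. It was among the genes with an unadjusted p under 0.05 when outlying backgrounds kept their measured values, as was B2m.

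Ifi27, a small protein of mitochondrial and nuclear membranes, had ratios of -0.37, 0.05, 0.45 and 0.63 and a mean of 0.19 ± 0.10 (moderated SE, n = 4 arrays, limma, adjusted p = 0.365), which turned to -0.20 under median centring. Gbp2, a guanylate-binding GTPase induced by interferon gamma, had -0.08, -0.86, 0.11 and -0.19 and a mean of -0.26 ± 0.16 (moderated SE, n = 4 arrays, limma, adjusted p = 0.394). Both changed side between arrays. Ifi35 had ratios between -0.06 and 0.31 and a mean of 0.10, which was -0.19 under median centring. Parp9 had ratios between -0.24 and -0.04 and a mean of -0.13, which was 0.04 under median centring.

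Parp14, an enzyme that adds ADP-ribose to proteins, had ratios of 0.02, -0.33, -0.18 and -0.02 and a mean of -0.13 by its brighter probe. Its dimmer probe, the one shown above that spans chr11:66758890-66761414 on rn4, had -0.26, 0.41, 0.36 and 0.04 and a mean of 0.14. The 2 probes had opposite signs on every array, and the mean over both was 0.0046.

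The inducible proteasome subunits take the place of the constitutive catalytic subunits when interferon gamma acts, and change which peptides the proteasome cuts. None of them had an unadjusted p under 0.05. Psmb9 had log2 signals of 10.93, 10.72, 11.02 and 10.74 in the IUGR samples, against 10.69, 11.03, 11.40 and 11.06 in the control samples. The IUGR sample was higher on array 1 and lower on the other arrays. Its ratios were 0.25, -0.31, -0.37 and -0.31, with a mean of -0.19 ± 0.12 (moderated SE, n = 4 arrays, limma, adjusted p = 0.402).

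Psmb8 had ratios of 0.36, 0.03, -0.22 and -0.53 and a mean of -0.09 ± 0.10 (moderated SE, n = 4 arrays, limma, adjusted p = 0.625). It was brighter in Cy5 on all 4 arrays, as was Irf8 (2 of the 35, against 8.95% of all genes). Psmb10 had 0.08, 0.13, -0.05 and 0.03 and a mean of 0.05 ± 0.07 (moderated SE, n = 4 arrays, limma, adjusted p = 0.732), with a sign that turned under median centring (-0.32) and with the processed signals of the scanner software (-0.0018). Of the constitutive counterparts, Psmb5, which Psmb8 replaces, had a mean of -0.08 ± 0.09. Psmb6, which Psmb9 replaces, had 0.04 ± 0.08, and Psmb7, which Psmb10 replaces, had -0.10 ± 0.10. The interferon-induced proteasome activator subunits Psme1 and Psme2 had means of -0.26 ± 0.12 and -0.12 ± 0.08, and Pomp, which assembles proteasomes, had 0.11 ± 0.09. Thus 5 of the 7 tested genes of the constitutive and activator list were below 0, with a list median of -0.09, and 0 of them had an unadjusted p under 0.05.

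The peptide loading genes had a median of 0.0056, with 2 of 4 above 0, and held Tap2 and B2m with means on opposite sides of 0. Tap2, which forms the peptide transporter with Tap1, had log2 signals of 8.41, 9.01, 8.95 and 9.13 in the IUGR samples, against 8.32, 7.36, 7.67 and 8.34 in the control samples. Every IUGR sample was higher than every control sample, though on array 1 the 2 samples were close. Tap2 was the only one of the 35 genes whose groups did not overlap (2.86%), against 3.00% of all genes tested, of which 1.39% were higher and 1.60% lower in IUGR. The ratios were 0.08, 1.65, 1.28 and 0.79, with a mean of 0.95 ± 0.28 (moderated SE, n = 4 arrays, limma, adjusted p = 0.339), and the fold was 1.94. The mean was 1.34 without array 1, 0.56 without array 2 and 0.48 with the channel brightness as a covariate. The Tap2 probe lies at chr20:4770555-4770614 on rn4.

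Tap1, the other part of the transporter, did not show a ratio of that size. It had log2 signals of 7.51, 7.33, 7.71 and 7.31 in the IUGR samples, against 7.52, 7.22, 7.40 and 7.14 in the control samples. The groups overlapped. Its ratios were -0.01, 0.10, 0.30 and 0.17, with a mean of 0.14 ± 0.08 (moderated SE, n = 4 arrays, limma, adjusted p = 0.368). The transporter genes and the inducible subunits Psmb8 and Psmb9 lie together in the class II region of chromosome 20. Psmb10 lies on chromosome 19. On rn4 the order of probes was Tap2, Psmb8, Tap1 and Psmb9, 17.4, 5.9 and 12.3 kb apart. Along that order the mean ratios were 0.95, -0.09, 0.14 and -0.19, so that neighbours had opposite signs. Psmb9 and Tap1, which share the stretch between their starts, also had opposite means. Over all tested pairs of neighbours within 1000 kb, 5 of 10 had the same sign.

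B2m, the light chain of every class I molecule, had log2 signals of 13.21, 13.00, 13.58 and 13.53 in the IUGR samples, against 13.11, 13.53, 14.19 and 13.89 in the control samples. The control sample of array 1 was lower than its IUGR partner, and the control samples of arrays 2 to 4 were higher than theirs. The ratios were 0.10, -0.53, -0.61 and -0.36, with a mean of -0.35 ± 0.13 (moderated SE, n = 4 arrays, limma, adjusted p = 0.339), which was -0.19 without array 2. Tapbp (tapasin), which bridges the transporter and the class I molecule, had ratios of -0.14, -0.40, -0.07 and 0.08 and a mean of -0.13.

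The class I heavy chains of the rat are the RT1 genes, many of them near-identical copies, so that a probe can bind RNA of several and each value is uncertain. Of 22 tested RT1 genes, 7 had mean ratios above 0 and 15 below, with a median of -0.04. Of these 22, 11 were dimmer in Cy5 on all 4 arrays, against 7.25% of all genes. RT1-CE16 had ratios of -1.87 and -1.44 on arrays 1 and 2, where IUGR was in Cy5, and 0.18 and 1.75 on arrays 3 and 4, where it was in Cy3. Its mean was -0.34 and its SD over the arrays 1.65. Over the whole list of class I heavy chains and folding factors, 14 of 30 tested genes were above 0 and 16 below, and 2 had an unadjusted p under 0.05 (6.67%, against 13.7% of all genes). RT1-N3 had a mean of -0.31 ± 0.11, and RT1-CE10 had 0.52 ± 0.19. Pdia3, a folding enzyme that joins tapasin, had 0.52 ± 0.21.

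**Figure D4:**
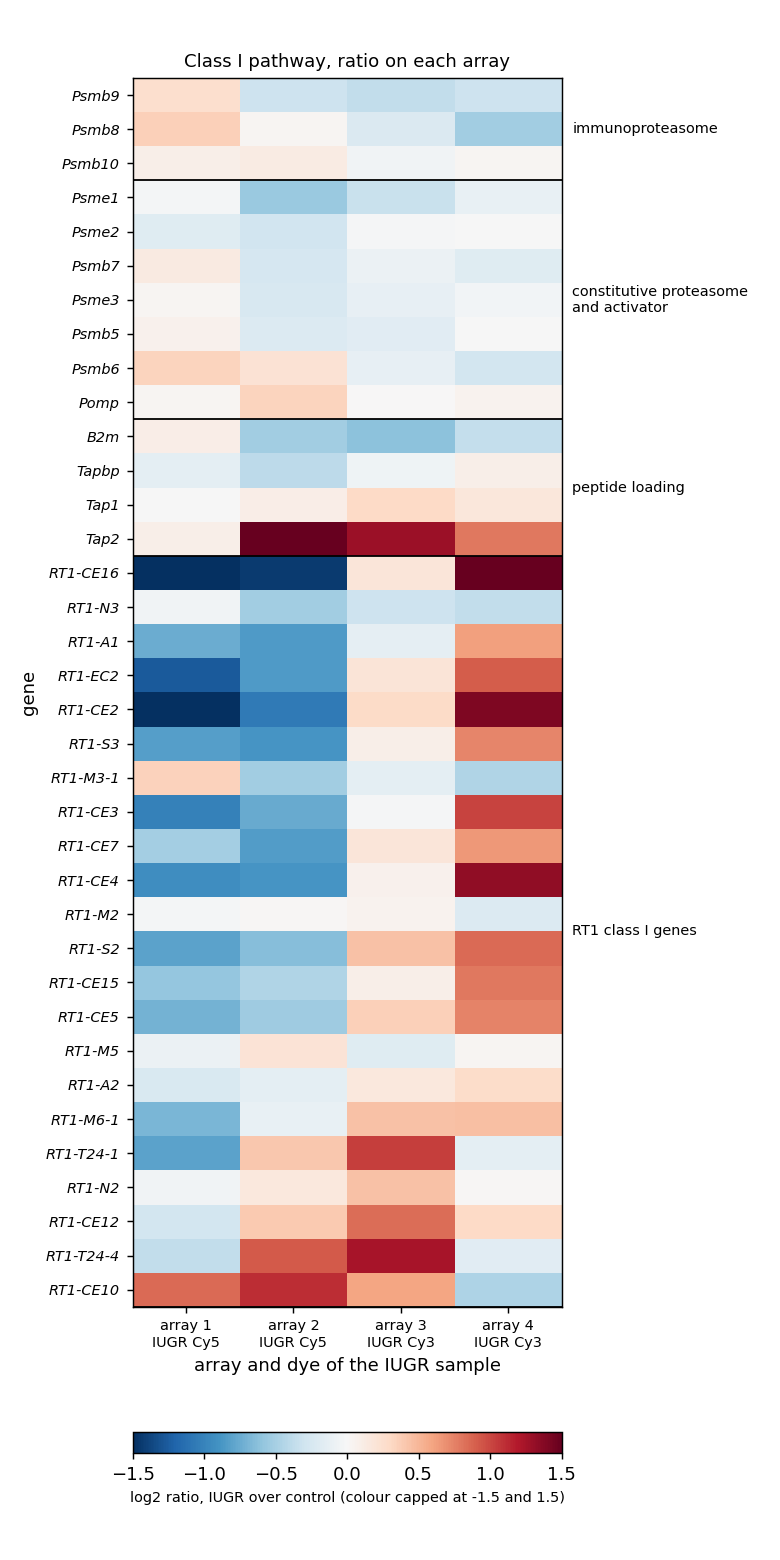
Log2 ratio of IUGR over control on each array (columns, with the dye of the IUGR sample) for genes of the class I pathway (rows), with red for higher and blue for lower in IUGR; the ends of the colour scale are capped. Tap2 is red on arrays 2 to 4 and B2m blue on the same arrays, while many RT1 genes, 11 of them on all 4 arrays, are blue where IUGR was in Cy5 and red where it was in Cy3.

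The genes upstream of the response were counted in lists of the pathway. Of 5 interferon genes with a probe, Ifng, Ifna1 and Ifnk were not above background in any channel. Ifna4 and Ifnb1 were tested, with means of 0.04 ± 0.07 and 0.01 ± 0.08. Of 6 tested receptors and kinases, 2 were above 0 and 4 below, with a median of -0.24. Of these, 2 had an unadjusted p under 0.05 (Ifnar1 and Jak2, 33.3%, against 13.7% of all genes). Ifnar1 had ratios of 0.12, 0.42, 0.69 and 0.16 and a mean of 0.35 ± 0.12. Jak2, a kinase of the interferon gamma receptor, had -0.18, -0.43, -0.44 and -0.08 and a mean of -0.28 ± 0.10. Jak1 had a mean of -0.27 ± 0.10. Stat3, of the same list, is not a receptor or kinase and was not counted among the 6. It was above 0 on all 4 arrays, with a mean of 0.25 ± 0.13. For the chains of the interferon gamma receptor, Ifngr1 had a mean of -0.38 ± 0.21 and Ifngr2 one of -0.21 ± 0.15. Thus a chain of the type I receptor and both chains of the gamma receptor had means on opposite sides of 0.

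In the list of nucleic acid sensing, 6 of 8 tested genes were above 0, with a median of 0.04, and 0 had an unadjusted p under 0.05. Myd88, the adaptor of Toll-like receptors, had a mean of 0.25 ± 0.10. The 2 genes below 0 were Tlr3, the endosomal receptor of double-stranded RNA, at -0.32 ± 0.19, and Tbk1, a kinase that activates interferon regulatory factors, at -0.16 ± 0.10. Of the feedback inhibitors, 7 of 10 were above 0, with a median of 0.09, and 0 had an unadjusted p under 0.05. Pias4, an inhibitor of the pathway, had a mean of 0.39 ± 0.15, and the phosphatases Ptpn11 and Ptpn2 had 0.27 ± 0.13 and -0.19 ± 0.12.

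A wider list of other interferon-stimulated genes had 13 of 34 tested genes above 0 and 21 below (61.8%, against 47.0% of all genes), with a median of -0.10. Of these, 4 had an unadjusted p under 0.05 (limma, 11.8%, against 13.7% of all genes), all lower in IUGR (against 6.54% of all genes), and 0 passed the adjusted test. Ifitm1, a relative of Ifitm3, had ratios of 0.02, -0.57, -0.54 and -0.71 and a mean of -0.45 ± 0.12. Epsti1 had 0.09, -0.77, -1.34 and -0.51 and a mean of -0.63 ± 0.21. Ifi47, an immunity-related GTPase, had 0.01, -0.42, -0.40 and -0.40, and Lap3, an aminopeptidase, had 0.11, -0.61, -0.74 and -0.43. All 4 were slightly above 0 on array 1 and below 0 on arrays 2 to 4, the course already seen in Ddx58, Eif2ak2 and B2m.

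**Figure D5:**
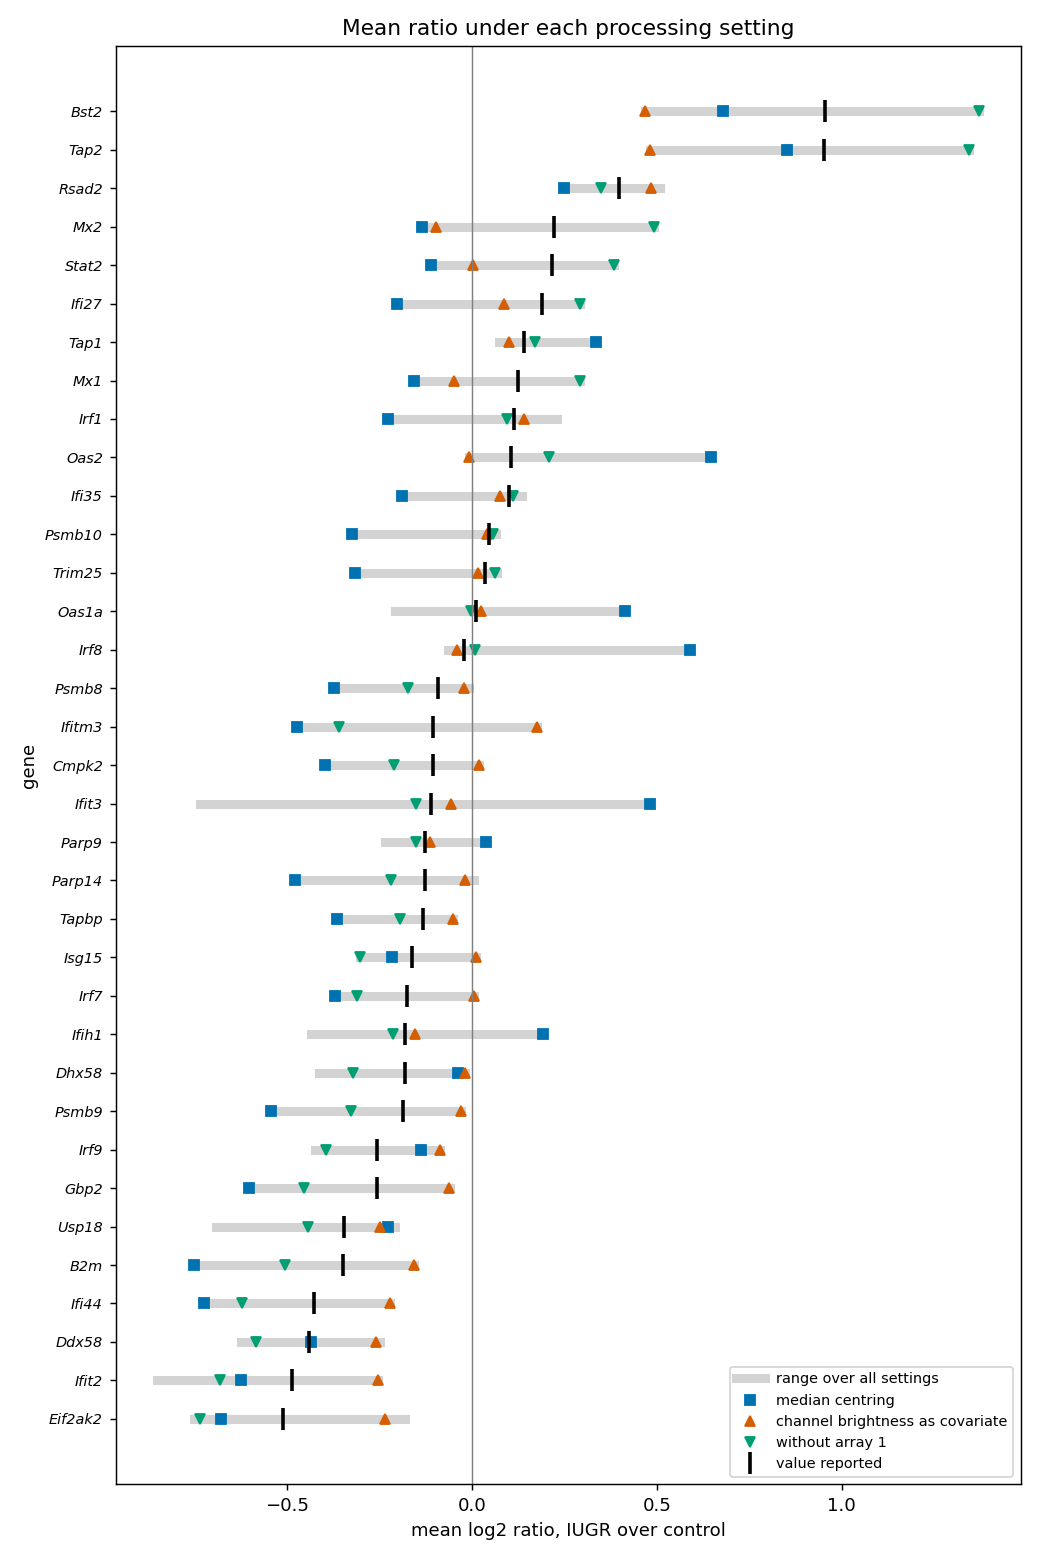
Mean log2 ratio of IUGR over control (horizontal axis) of each tested gene (vertical axis) as reported (black bar), under median centring, with the channel brightness as a covariate, without array 1, and as a grey range over all settings. Of the 35 genes, 16 keep their sign in every setting that measured them, among them Bst2, Tap2 and Rsad2 on the right and B2m, Ddx58, Ifit2 and Eif2ak2 on the left, while the others cross 0. A dimmer probe of a gene is not drawn on its own, and several settings leave the means as reported.

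Under 18 other settings, 16 of the 35 genes kept the sign of their mean wherever they were measured (15 in all 18, and Irf9 in 17), among them all 9 with an unadjusted p under 0.05. The fits without a dye term, with array weights, other filters, every probe tested or the replicate block left the means as reported. A sign kept there is no further check. The 2 settings of outlying backgrounds gave the same means as each other. Each gene was followed by its brightest probe or the mean over its probes, and the dimmer Eif2ak2 probe had a mean of 0.15. The ranges were 0.48 to 1.34 for Tap2, 0.47 to 1.37 for Bst2 and 0.25 to 0.51 for Rsad2. They were -0.62 to -0.25 for Ddx58, -0.85 to -0.25 for Ifit2, -0.69 to -0.21 for Usp18, -0.72 to -0.22 for Ifi44, -0.75 to -0.18 for Eif2ak2 and -0.75 to -0.16 for B2m. The smallest adjusted p of any of the 35 in any setting was 0.0723, reached without array 1.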

How the data were processed

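Islet RNA of 4 IUGR and 4 control samples was hybridised to 4 two-colour arrays. The scans were quantified by Feature Extraction 10.10.1.1 of Agilent (protocol GE2_1010_Sep10), per the file headers. The deposited scanner files give mean signals and median local backgrounds in units of intensity. The deposited value table gives a log2 ratio per spot, which matched Cy5 over Cy3 by correlation with the scanner values (r from 0.988 to 0.998, medians -0.029 to 0.008) and served as an alternative. The scanner software's processed signals, also a deposited intensity, served as another, and its deposited log10 ratio was not used. Submitters' processing notes name limma without settings.

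The analysis used limma 3.58.1 (R 4.3.3, statmod 1.5.0): normexp with an offset of 50, loess within arrays with control spots at weight 0, feature outliers left out, and outlying local backgrounds set to the median of their array and channel. Spots of a probe were averaged, and the brightest probe stood for its gene. A gene was tested if well above background in at least 2 of 4 IUGR or 2 of 4 control channels and measured on 4 arrays. The log2 ratios were fitted with a dye term (2 residual and 2.75 prior degrees of freedom) and adjusted by Benjamini-Hochberg over all 20012 genes. The dye term was kept when 1 array was left out. An array then alone in its dye orientation counted as much as the other 2 together. Log2 signals per sample came from Aquantile scaling after loess, and signals of different probes are not comparable. The fit was tested on simulated data.

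The genes and lists were chosen with earlier results of these data known. All genes of the set are named, and up to 3 per role with the smallest p have full statistics. In the lists, up to 3 with the smallest p and the receptors and constitutive subunits are named. Lap3, RT1-CE16 and Stat3 were named outside this rule, after their values were seen. A gene of 1 list is not reported here. Of the samples on an array, the labels state only that they were hybridised together. The number of arrays limits the precision. Alternatives covered background, normalization, filter, probe choice, dye, weights, brightness and arrays left out. A slide or scan block was not run, since all arrays lay on 1 slide.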

Additional observations from a re-analysis of the deposited data

Results flagged for a closer look

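For 105 sets of 4 values (ratios on the arrays, IUGR signals and control signals of each tested gene), a Dixon test asked whether 1 value stood apart from the other 3. It marked 4, and chance alone marks about 1 in 20. The Ifitm3 ratio on array 2 was -0.85, against 0.12 to 0.17 on the other arrays. The Psmb9 ratio on array 1 was 0.25, against -0.37 to -0.31 on the other arrays. The Irf7 log2 signal in the control sample of array 3 was 9.36, against 8.73 to 8.83 in the other control samples. The Isg15 log2 signal in the same control sample was 8.55, against 8.12 to 8.17 in the other control samples.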

How the results depend on the processing

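None of the 35 genes passed the adjusted test in any of 18 other settings (limma). Of the 35, 16 kept their sign in each setting that measured them, though several settings left the means as reported. Of 20012 genes, 15 were called under median centring and 8 with the channel brightness as a covariate, each of them lower in IUGR. In the other settings, which tested 17635 to 26412 genes, 0 were called. The number of the 35 with an unadjusted p under 0.05 was 3 under median centring, 5 with the processed signals, 2 with outlying backgrounds left out, 2 with them as measured, 5 with the brightness covariate, and 18, 5, 1 and 4 without array 1, 2, 3 and 4. Over all genes tested, that number also fell, from 2735 in the reported fit to 1185 under median centring and 1883 with the processed signals. It was 1472 with outlying backgrounds left out and 1482 with them as measured. With the brightness covariate and with 1 array left out, the counts over all genes are not given. Those fits had 1 residual degree of freedom, and their counts of the 35 have no share of all genes beside them. The median of the 35 was -0.22 under median centring and -0.019 with the brightness covariate, and ran from -0.17 without array 1 to -0.04 without array 2 when 1 array was left out. Under the replicate block, single-channel values were fitted with the replicate number as the block, which pairs samples of different arrays. The labels do not say that equal numbers share a litter or animal. In that fit 7 of the 35 had an unadjusted p under 0.05 (limma) and 0 were called. The count over all genes in that fit is not given, so the 7 have no share beside them. The median of -0.11 could not change, because each block held 1 IUGR and 1 control sample.

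Signs turned as follows, and the cause was not tested. Median centring gave Ifi27 -0.20, Ifi35 -0.19, Ifih1 0.19, Ifit3 0.48, Irf1 -0.23, Irf8 0.59, Mx1 -0.16, Mx2 -0.14, Parp9 0.039, Psmb10 -0.32, Stat2 -0.11 and Trim25 -0.32. The brightness covariate gave Cmpk2 0.019, Ifitm3 0.17, Irf7 0.0055, Isg15 0.012, Mx1 -0.048, Mx2 -0.097 and Oas2 -0.0083. The processed signals gave Oas1a -0.21 and Psmb10 -0.0018, the deposited ratios gave Oas1a -0.0095, and the mean over probes gave Parp14 0.0046. Outlying backgrounds as measured or left out gave Irf8 0.030, Oas1a -0.0018 and Trim25 -0.0082. With 1 array left out, the means ran from -0.065 to 0.023 for Irf8 (0.0088 without array 1), -0.0023 to 0.026 for Oas1a, -0.36 to 0.15 for Ifitm3, -0.041 to 0.29 for Mx1 and -0.051 to 0.49 for Mx2. Irf9 was not measured with outlying backgrounds left out, and the strict filter removed Ifit3 and Irf8. Signals near background limit Ifit3, Irf8, Ifit1 and Oasl.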
